A study of Mus musculus with 22 samples.

Results

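Oligodendrocytes, the myelin-forming glia of the central nervous system, arise from dividing precursor cells that leave the cycle, pass through a short committed stage and then wrap axons. In mice this sequence starts before birth and runs through the first postnatal weeks, and the hindbrain is known to myelinate before the forebrain. Genes that mark the sequence from precursor to newly formed cell were followed here through the slabs of whole young mouse brains. Of these, 4 are transcription factors kept through most of the lineage: Olig1 and Olig2, neighbouring genes for basic helix-loop-helix proteins, Sox10, an SRY-related factor that switches on myelin genes, and Nkx2-2, a homeodomain factor that acts around the onset of differentiation. Pdgfra, the receptor for the mitogen PDGF-A, and Cspg4, the NG2 proteoglycan of the precursor surface, define the dividing precursor. Gpr17, a G protein-coupled receptor that is lost before myelination, Bmp4, a secreted bone morphogenetic protein, and Enpp6, a choline phosphodiesterase, are higher in cells committed to differentiate. These 9 genes, listed by name, are 9 of the 20129 RefSeq genes with a symbol on the array, and each was read through 1 probe, the RefSeq-identified probe of that gene with the highest median over all arrays.

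The data came from Transcriptome Tomography of the brains of 3 male C57BL/6J mice, with 1 mouse for each plane of sectioning. Each brain was frozen and cut from one end to the other, the sections of a slab were pooled as 1 fraction, and total RNA from each fraction was labelled with Cy3 and hybridised to a 1-colour Agilent whole-genome array. Mouse 1 gave 10 coronal fractions, mouse 2 gave 6 horizontal fractions and mouse 3 gave 6 sagittal fractions, for 22 arrays in all. No animal carried a transgene or received a treatment. The sample titles give the age as 7 days and the age field as 3 days, so the animals are called early postnatal here, and the labels do not name the end at which fraction 1 lies.

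Values are expression densities, written as log2 of the processed spot intensity minus the 75th percentile of that array, so that 0 is the intensity that 75% of probes do not exceed. A level is comparable across fractions for a given probe and is not compared between genes. Each fraction was hybridised once. The error given for a change is therefore the scatter of single arrays around a smooth curve along the series and holds no spread between animals. In these bulk samples fewer cells of a type and less RNA per cell cannot be told apart.

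Between 29596 and 41947 probes were well above background on each array. The spike-in calibration slope was out of the scanner software's range on 7 arrays, which were the first 2 of the coronal series, the first 3 of the horizontal series, and numbers 1 and 3 of the sagittal series. The 22 arrays lay on 4 slides, of which 1 held only coronal fraction 2, 1 held the whole horizontal series, and 1 held the sagittal series with coronal fractions 9 and 10. Landmark genes gave the series an orientation. Hoxb5, a hindbrain and spinal cord gene, was at 4.44 in coronal fraction 1 and -4.58 in coronal fraction 10, whereas Doc2g, a gene of olfactory bulb projection neurons, went from -2.88 to 2.83. In the horizontal series Avp, made in the hypothalamus, stood at -2.92 in fraction 1 and 5.39 in fraction 6. Fractions are described below as nearer to the Hoxb5-rich or Doc2g-rich coronal end and to the Avp-rich horizontal end.

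All 9 probes had a signal well above background in at least 1 fraction of every series and entered the test, and all but that of Enpp6 did so on all 22 arrays. The Enpp6 probe was not well above background in horizontal fraction 1 and sagittal fraction 6, and passed on 20 of 22 arrays.

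**Figure D1:**
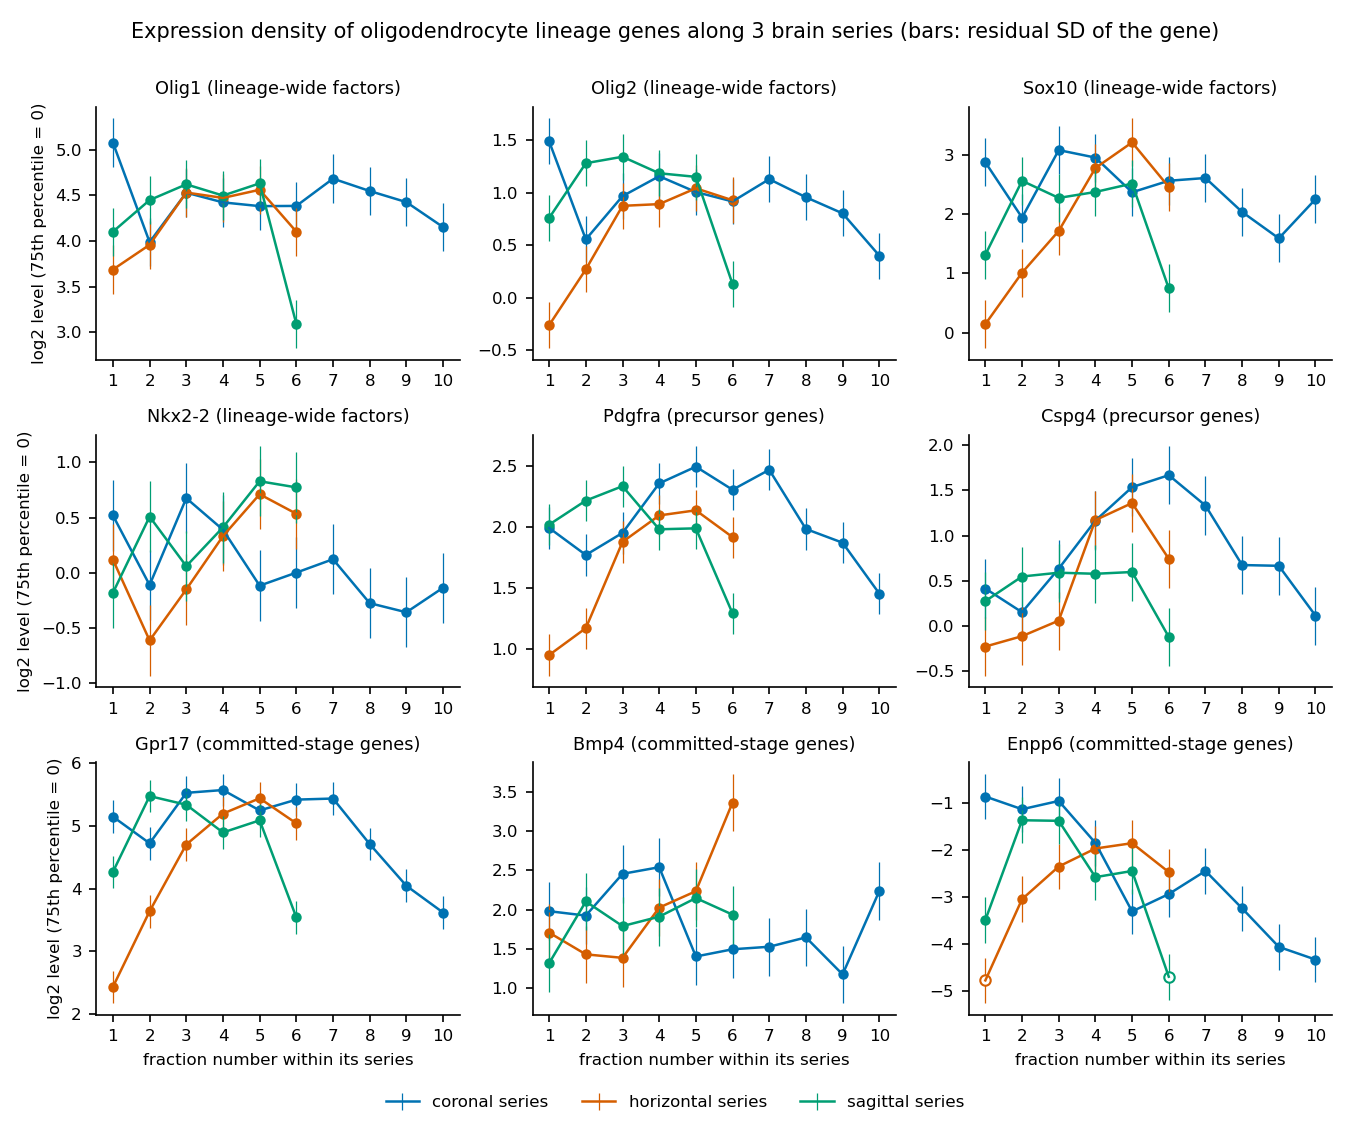
Expression density of the 9 genes in every fraction (horizontal axis) of the coronal, horizontal and sagittal series, with 1 point per array. The vertical axis is log2 of intensity minus the array's 75th percentile. Bars are the residual SD of the gene, that is the scatter of single arrays around its fitted curves. Each fraction was measured once, so the bars show no spread between replicates. Enpp6 runs from -0.87 to -4.33 along the coronal series, Pdgfra and Cspg4 arch over its middle, and Gpr17, Sox10 and Olig2 are lowest in horizontal fraction 1.

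Along the coronal series 4 of the 9 genes changed with position. Enpp6 and Gpr17 fell from the Hoxb5-rich end toward the Doc2g-rich end, by 3.60 ± 0.48 and 1.40 ± 0.27 on the log2 scale (fitted change from the first to the last slab ± SE). Pdgfra and Cspg4 instead formed an arch, with their highest levels in fractions 5 and 6. The test was limma's moderated F test on a linear and a quadratic term, with Benjamini-Hochberg adjustment over all 39602 probes tested and a threshold of 0.05, and 19.8% of all probes passed it (12.4% with a positive and 7.43% with a negative linear term). Over the 9 genes the median fitted range was 0.79 log2 units, against 1.00 over all probes, and the median linear change was -0.49 against -0.12.

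Among the lineage-wide factors none passed in the coronal series. Olig2 lay between 0.40 (fraction 10) and 1.49 (fraction 1) with a median of 0.96, and its fitted change was -0.49 ± 0.24 (limma adjusted p = 0.205, and 0.0121 without fraction 1 or 0.0378 without fraction 2). Olig1 had the same end at its top, at 5.08 in fraction 1, and was lowest in fraction 2 at 3.99, its median being 4.42. That drop between neighbouring fractions came in the fraction that was alone on its slide, and the part of the slide in it was not tested. Sox10 was highest in fraction 3 at 3.08 and lowest in fraction 9 at 1.59, with a median of 2.46 and a fitted change of -0.79 ± 0.40 (limma adjusted p = 0.262). Nkx2-2 followed the same course, from 0.68 in fraction 3 to -0.36 in fraction 9 around a median of -0.06. Both genes were at their highest in fraction 3 and at their lowest in fraction 9.

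The precursor genes had a different profile. Pdgfra was at 1.99, 1.77 and 1.95 in fractions 1 to 3, at 2.36, 2.49, 2.31 and 2.47 in fractions 4 to 7, and at 1.99, 1.87 and 1.46 in fractions 8 to 10. The 4 middle fractions lay above all 6 others, and the quadratic coefficient was -2.96 ± 0.68 with a linear change of -0.29 ± 0.20 (limma adjusted p = 0.0175). Cspg4 started at 0.41, 0.15 and 0.63, reached 1.17, 1.53, 1.67 and 1.33 in fractions 4 to 7, and ended at 0.67, 0.67 and 0.12. Its highest and lowest fractions differed 2.93-fold, and again fractions 4 to 7 were above every other fraction (quadratic coefficient -5.14 ± 1.13, limma adjusted p = 0.0175). The landmark Avp was also highest in coronal fraction 6, at 2.83. The arches did not pass once the slide was taken as a block (adjusted p = 0.242 for Pdgfra and 0.141 for Cspg4), and that of Pdgfra did not pass without fraction 10 (adjusted p = 0.0889) nor that of Cspg4 without fraction 6 (adjusted p = 0.0511).

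Of the committed-stage genes, Enpp6 had the steepest profile of the 9 in this series. It was at -0.87, -1.14 and -0.96 in fractions 1 to 3, at -1.85 in fraction 4, between -3.31 and -2.45 in fractions 5 to 8, and at -4.06 and -4.33 in the last pair. The first 3 fractions stood above all others, the first was 11.01-fold above the last, and the change passed at a limma adjusted p of 0.00112. The fitted range lay at percentile 95.0 of all probes tested. Gpr17 stayed between 4.71 and 5.57 through fractions 1 to 8 and dropped to 4.04 and 3.62 in fractions 9 and 10. Its lowest levels thus lay at the Doc2g-rich end (limma adjusted p = 0.00186, quadratic coefficient -4.68 ± 0.95), whereas Enpp6 was already lower from fraction 5 on. Bmp4 did not pass (limma adjusted p = 0.319). Its levels were 1.98 and 1.93 in fractions 1 and 2, 2.46 and 2.54 in fractions 3 and 4, 1.41 to 1.65 in fractions 5 to 8, 1.18 in fraction 9 and 2.24 in fraction 10. With the slide as a block neither Gpr17 (adjusted p = 0.203) nor Enpp6 (adjusted p = 0.056) passed, and 4.03% of all probes did.

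The promoters of the 2 precursor genes and of Enpp6, which parted along the coronal series, are printed as the 250 bases before the RefSeq transcription start (build GRCm38.p6, 5′ to 3′ on the gene's strand, plus in each case). They lie at chr5:75152001-75152250 for Pdgfra, chr9:56864854-56865103 for Cspg4 and chr8:46986637-46986886 for Enpp6. Capitals mark matches to 4 motifs searched on both strands: the SOX motif ACAAAG, its variant ACAATG, the E-box CANNTG bound by basic helix-loop-helix factors, and TATAAA.
Pdgfra: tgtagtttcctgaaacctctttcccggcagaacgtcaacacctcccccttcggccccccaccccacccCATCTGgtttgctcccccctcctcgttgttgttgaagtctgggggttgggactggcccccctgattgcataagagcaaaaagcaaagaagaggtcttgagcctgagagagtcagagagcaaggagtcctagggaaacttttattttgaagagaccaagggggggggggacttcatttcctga
Cspg4: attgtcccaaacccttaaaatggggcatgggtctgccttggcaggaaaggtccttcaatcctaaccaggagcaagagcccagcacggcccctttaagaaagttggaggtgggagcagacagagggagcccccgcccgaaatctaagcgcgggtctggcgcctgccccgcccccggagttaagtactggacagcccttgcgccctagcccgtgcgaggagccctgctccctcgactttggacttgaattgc
Enpp6: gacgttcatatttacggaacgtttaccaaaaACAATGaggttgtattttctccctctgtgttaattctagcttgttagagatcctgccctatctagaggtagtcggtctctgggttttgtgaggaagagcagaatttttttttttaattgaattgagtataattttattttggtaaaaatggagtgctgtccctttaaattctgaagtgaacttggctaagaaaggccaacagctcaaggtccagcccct
Pdgfra held 1 E-box, Enpp6 held 1 ACAATG and Cspg4 held none of the 4 motifs. The GC content was 54.4%, 60.4% and 38.4%, against a median of 52.4% over 32851 RefSeq promoters. Over the 6 of the 9 genes with a promoter in the table used, ACAAAG was in 0, ACAATG in 2 (Enpp6 and Olig2), CANNTG in 3 (Nkx2-2, Pdgfra and Bmp4) and TATAAA in 1 (Olig2). The shares of all promoters holding them were 16.5%, 10.7%, 66.2% and 12.4%, and a match is a description of the letters and not a bound site. Olig1 and Olig2 lie next to each other on the same chromosome, with 1 predicted gene, Gm52261, annotated between them.

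In the horizontal series 6 of the 9 genes rose toward the Avp-rich end, namely Gpr17, Sox10, Pdgfra, Enpp6, Olig2 and Bmp4. The fitted changes were 2.71 ± 0.32 for Gpr17, 2.74 ± 0.47 for Sox10, 2.20 ± 0.56 for Enpp6, 1.62 ± 0.43 for Bmp4, 1.18 ± 0.28 for Olig2 and 1.13 ± 0.23 for Pdgfra. Of all probes 6.57% passed the same F test in this series, made up of 3.95% with a positive and 2.62% with a negative linear term. All 9 linear terms were above 0, with a median of 1.48, against a median of -0.20 over all probes. They stayed above 0 when each array was centred on its median, quantile-normalized or left unscaled, although those choices moved the all-probe median to 0.32, 0.23 and -0.12. The probes that passed split into 1563 rising and 1038 falling, and into 1031 and 198 after centring on the median. With the spike-in RNA a107 as a covariate 8 of the 9 linear terms were above 0. Their median was then 1.02, against -0.03 over all probes.

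Gpr17 was at 2.43 in fraction 1, then at 3.64, 4.70, 5.20, 5.44 and 5.04, so that fractions 5 and 1 differed 8.06-fold (limma adjusted p = 0.00205). Sox10 went from 0.15 through 1.01, 1.71 and 2.77 to 3.20 and back to 2.45, an 8.32-fold difference between fractions 5 and 1 (limma adjusted p = 0.0128). Each of the pair climbed in every step up to fraction 5. Enpp6 was at -4.77 in fraction 1, where its spot was not well above background, and at -3.05, -2.35, -1.97, -1.86 and -2.47 in the fractions after it. Its adjusted p was 0.0271 (limma).

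Pdgfra climbed from 0.95 and 1.17 to 1.88, and then stood between 1.92 and 2.14 in fractions 4 to 6 (limma adjusted p = 0.0201). Olig2 was at -0.26 and 0.27 in fractions 1 and 2 and between 0.88 and 1.04 from fraction 3 on (limma adjusted p = 0.0316). Both reached their upper level by the middle of the series. Bmp4 was alone in having its highest level in the last fraction. It stood at 1.71, 1.43 and 1.39, then at 2.03 and 2.24, and at 3.36 in fraction 6 (limma adjusted p = 0.0412), and without that fraction it did not pass (adjusted p = 0.345), nor did it without any other of the 6 horizontal fractions. The call of Bmp4 was lost in 15 of the 22 fits that left out 1 array and in 7 of 12 other alternatives.

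The other 3 genes did not pass. Cspg4 came close, with levels of -0.23, -0.11 and 0.06 in fractions 1 to 3 and 1.17, 1.36 and 0.74 in fractions 4 to 6, which did not overlap (change 1.48 ± 0.38, limma adjusted p = 0.0539). The first 3 fractions are also those with a spike-in slope out of range, with log2 signals of the dim spike-in RNA a107 of 7.73 to 7.94 against 3.07 to 3.67 in the last 3, so that position and this deviation cannot be told apart for such a split. Nkx2-2 lay between -0.61 and 0.71 (adjusted p = 0.147), and Olig1 between 3.69 and 4.56 (adjusted p = 0.122).

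Horizontal fraction 1 is 1 of the 7 arrays with a spike-in slope out of range. Without it 0 of the 9 genes passed, as did only 0.0227% of all probes, and the adjusted p-values of the 6 genes lay between 0.0706 (Gpr17) and 0.317 (Enpp6, limma). The fitted range was then 2.38 for Enpp6 (2.86 with the fraction) and larger than with it for the other 8 genes. In proportion it moved most in Nkx2-2 (0.94 to 2.09), Cspg4 (1.48 to 2.64) and Pdgfra (1.26 to 1.88), while Gpr17 went from 2.98 to 3.25. These ranges cover the whole series, so without fraction 1 the curve was extrapolated to a slab with no array. They therefore show no larger change. Over fractions 2 to 6 the levels ran from -0.61 to 0.71 for Nkx2-2, -0.11 to 1.36 for Cspg4, 1.17 to 2.14 for Pdgfra and 3.64 to 5.44 for Gpr17. Without fraction 2, 4 or 5 the count of genes that passed was 3, 3 and 2. With a107 as a covariate Gpr17 alone passed (limma adjusted p = 0.0337), with 0.152% of all probes. The correlation of a107 with the genes over the 22 arrays ran from -0.11 for Enpp6 to -0.76 for Cspg4, and its part in the profiles was not tested further.

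In the sagittal series, which crosses the brain from side to side, 0 of the 9 genes passed for the linear term (10.0% of all probes passed) and 0 for the quadratic term (0.0303% passed). At an unadjusted p under 0.05 limma gave 6 genes for each term, where 23.9% and 14.8% of all probes passed. The quadratic coefficient was below 0 in 9 of 9 genes, with a median of -3.44 against 0.76 over all probes. The fitted curve of Nkx2-2 (quadratic coefficient -0.52, linear change 0.92) nevertheless rose up to the last fraction. Gpr17 stood at 4.27 and 3.54 in the outer fractions and between 4.89 and 5.48 in the 4 inner ones (quadratic coefficient -5.37 ± 1.04, limma adjusted p = 0.0555). Enpp6 was at -3.49 and -4.69 at the sides, the latter not well above background, and between -2.58 and -1.37 inside (quadratic coefficient -8.87 ± 1.81, limma adjusted p = 0.0643). Olig2, Sox10 and Pdgfra were likewise lowest in fraction 6, at 0.13, 0.75 and 1.29, as was Olig1 at 3.09 and Cspg4 at -0.12. Nkx2-2 departed from this, at 0.83 and 0.77 in fractions 5 and 6 and -0.18 in fraction 1, and Bmp4 lay between 1.32 and 2.15.

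**Figure D2:**
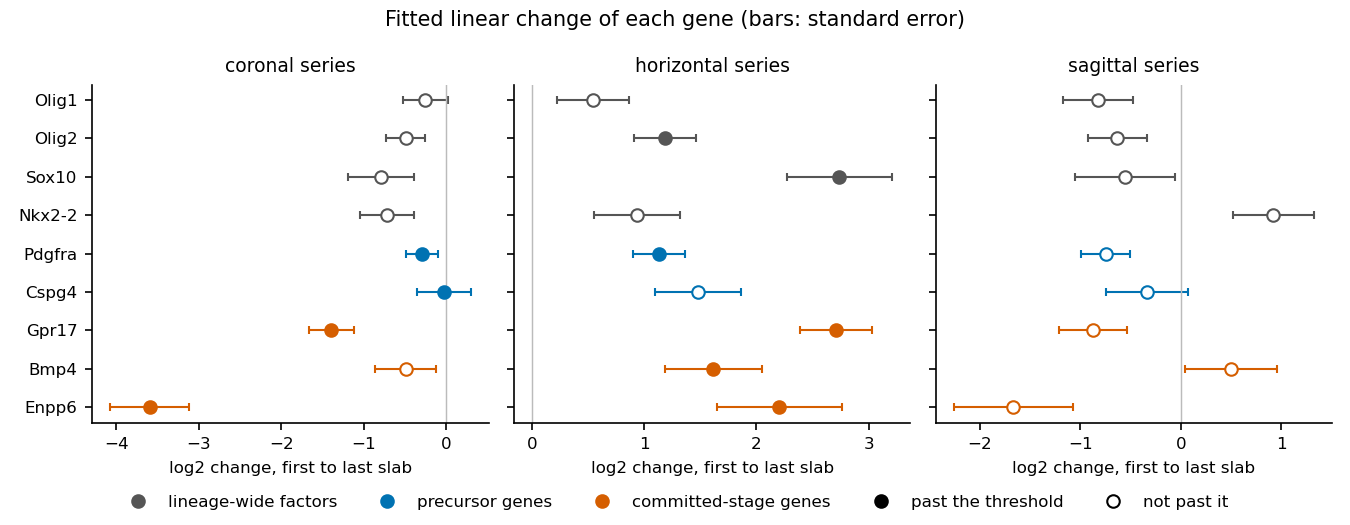
Fitted linear change from the first to the last slab of each series (log2 units, horizontal axis) for the 9 genes, with bars of 1 SE from limma and filled points for genes that passed the test of that series. In the coronal panel Enpp6 is at -3.60 and Gpr17 at -1.40. In the horizontal panel all 9 genes lie above 0, as they did under each scaling tried, and 8 of the 9 did with the a107 covariate.

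The precursor and committed-stage genes were next compared as classes. For every array the mean of Gpr17, Bmp4 and Enpp6 and the mean of Pdgfra and Cspg4 were taken after centring each gene on its own mean over the 22 arrays, and the difference between the classes does not move when a constant is subtracted from all probes of an array. This is a description with no test. In the coronal series the committed-stage mean was highest in fraction 3 at 1.00 and lowest in fraction 9 at -0.96, and the precursor mean was highest in fraction 5 at 0.73 and lowest in fraction 10 at -0.50. The committed-stage minus precursor difference was 0.82, 0.81, 0.99 and 0.26 in fractions 1 to 4 and lay between -0.96 and -0.34 in fractions 5 to 10. It changed sign once along the series, and its linear change was -1.67 ± 0.40 log2 units. The lineage-wide factors changed by -0.56 ± 0.25, between the committed-stage class at -1.83 ± 0.31 and the precursor class at -0.16 ± 0.23.

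The coronal difference was not shared evenly by the committed-stage genes. Enpp6 minus Pdgfra changed by -3.31 ± 0.54 and Enpp6 minus Cspg4 by -3.56 ± 0.67, Gpr17 minus Pdgfra by -1.10 ± 0.23 and Gpr17 minus Cspg4 by -1.36 ± 0.34. For Bmp4 the changes were -0.20 ± 0.44 and -0.46 ± 0.53, less than their errors. Without Enpp6 the class difference was -0.78, and with Enpp6 read through its other probe it was -1.11 ± 0.41, a choice added after seeing the data. The linear changes of the precursor pair were close, with a Pdgfra minus Cspg4 change of -0.26 ± 0.26. Their arches differed in height, so that this difference ran from -0.67 in fraction 6 to 0.31 in fraction 2.

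In the other planes the linear change of the class difference was smaller in size than 1 log2 unit. The committed-stage minus precursor difference ran from -0.63 in horizontal fraction 1 to 0.59 in fraction 6, a linear change of 0.87 ± 0.47. In that series Gpr17 minus Pdgfra changed by 1.58 ± 0.27 and Gpr17 minus Cspg4 by 1.23 ± 0.40. Enpp6 minus Pdgfra changed by 1.07 ± 0.63 and Enpp6 minus Cspg4 by 0.72 ± 0.78. For Bmp4 the changes were 0.48 ± 0.52 and 0.13 ± 0.62. Along the sagittal series the class difference was -0.51 and -0.39 in the outer fractions and between 0.07 and 0.63 in the inner ones. Its linear change was -0.14 ± 0.49. Olig1 and Olig2, which share the lineage-wide role, also moved unequally: Olig1 minus Olig2 changed by -0.64 ± 0.14 along the horizontal series and by 0.24 ± 0.12 along the coronal one.

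**Figure D3:**
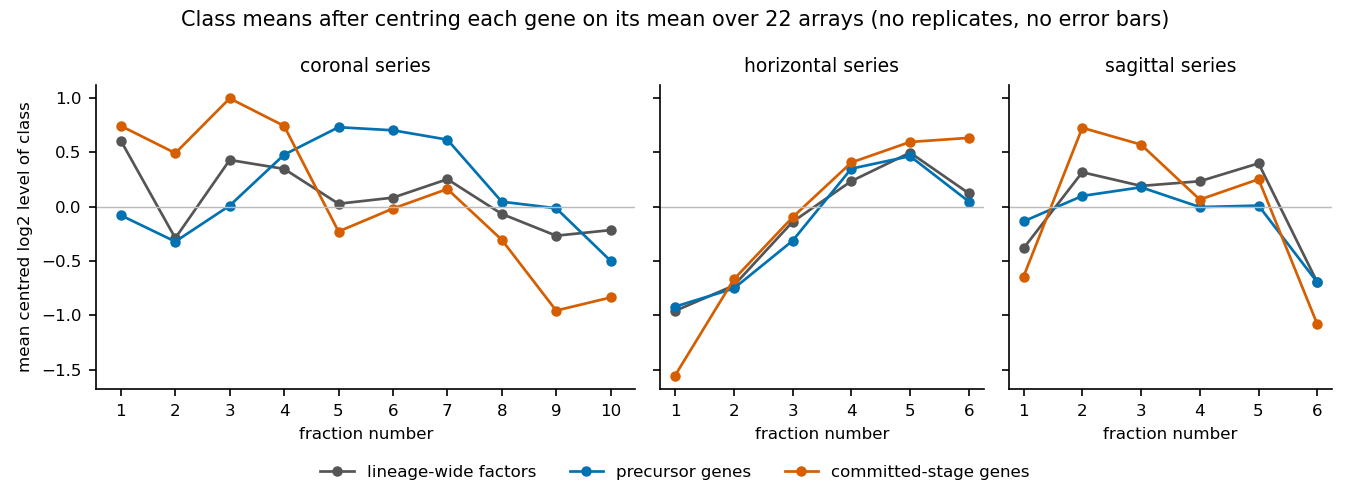
Mean expression density of the committed-stage genes (Gpr17, Bmp4, Enpp6), the precursor genes (Pdgfra, Cspg4) and the lineage-wide factors (Olig1, Olig2, Sox10, Nkx2-2) in every fraction, each gene centred on its mean over 22 arrays (log2 units, vertical axis), 1 array per point. The committed-stage line peaks in coronal fraction 3 at 1.00 and the precursor line in fraction 5 at 0.73.

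Correlations between the 9 genes differed by pair and by plane. Over the 22 arrays Pearson's r with Gpr17 was 0.90 for Pdgfra, 0.90 for Sox10, 0.89 for Olig2 and 0.79 for Enpp6. Olig1 with Olig2 gave 0.86 and Pdgfra with Cspg4 gave 0.83, the latter 0.91 within the coronal series. Bmp4 and Nkx2-2 both had lower values. Bmp4 was at -0.01 with Olig1, 0.03 with Pdgfra and 0.45 with Sox10, and Nkx2-2 at 0.07, 0.16 and 0.43. The highest r of each among the 9 was 0.66, with the other. Pdgfra with Enpp6 gave 0.92 in both the horizontal and the sagittal series and 0.14 in the coronal one, where Cspg4 with Enpp6 was at -0.14. Gpr17 did not share this, at 0.80 with Pdgfra and 0.64 with Cspg4 in the coronal series. Bmp4 with Pdgfra was at -0.28 in the coronal and -0.07 in the sagittal series. These are correlations over arrays that share animals, scaling and spike-in deviations, and are given as descriptions. Those of Enpp6 hold for the probe used. Its other probe gave r = 0.82, 0.71 and 0.52 with that probe in the coronal, horizontal and sagittal series.

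**Figure D4:**
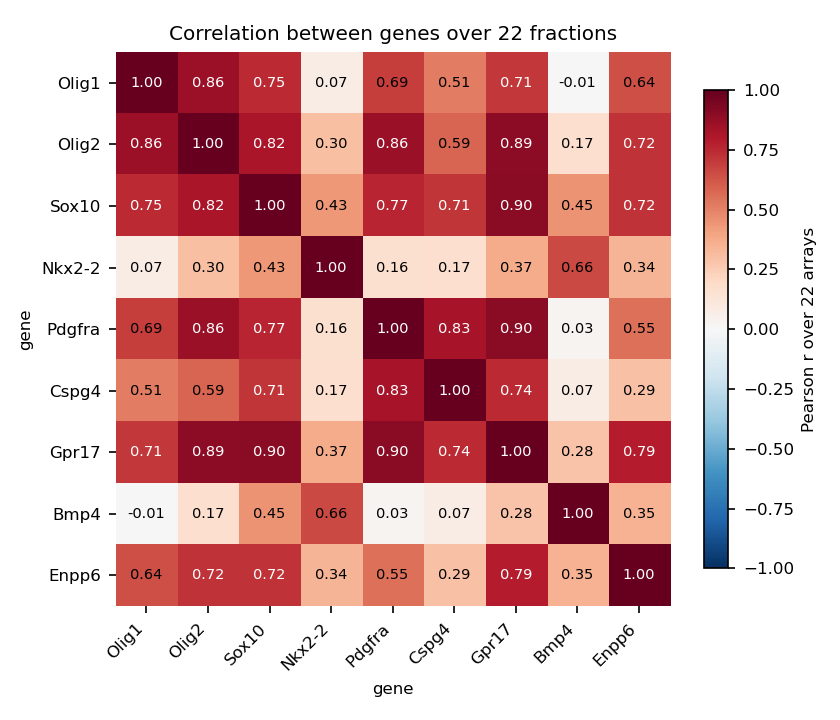
Pearson's r over the 22 arrays between every pair of the 9 genes, coloured from negative to positive. Gpr17 has high values with Pdgfra (0.90), Sox10 (0.90), Olig2 (0.89) and Enpp6 (0.79), and Bmp4 lies near 0 with Olig1 and Pdgfra.

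Beyond the 9, the most similarly expressed genes were sought among 16676 RefSeq genes, by Pearson's r over the 22 arrays. Among the nearest to Gpr17 were Specc1 (0.94) and Rfx4 (0.94). Specc1 was also the nearest to Olig2 (0.94), followed by Tns3 (0.93) and Ankrd34b (0.91). Peak1, Pomt2 and Tnk2 came closest to Pdgfra (0.95, 0.94 and 0.93), and Irs2, St8sia1 and Ube2o to Cspg4 (0.96, 0.95 and 0.95). Around Sox10 stood Slc6a9, the glial glycine transporter, at 0.96, then Sec14l2 and Rfx4 at 0.94 each. Fyn, a Src family kinase needed for myelination, led for Olig1 (0.93), ahead of Kcnj10 (0.88) and Ahcyl1 (0.88).

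Enpp6 was most like Gltp, a glycolipid transfer protein, at 0.95, then Inava and Fam122b at 0.94 and 0.92. Nkx2-2 was most like Tspan12, Wipf1 and S100a13 (0.90, 0.88 and 0.88). For Bmp4 they were Selenbp1, Bche and Hsd3b7 (0.91, 0.91 and 0.90). The number of genes with r over 0.85 ranged from 7 for Nkx2-2, 10 for Olig1 and 20 for Bmp4 to 145 for Pdgfra, 194 for Sox10 and 402 for Cspg4.

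To place the 9 genes in the lineage, lists of other stage genes were read in the same fits. Of 16 myelinating oligodendrocyte genes 14 passed in the coronal series, 13 of them falling from the Hoxb5-rich end, with a median change of -2.78 (over all probes 19.8% passed and 7.43% did so falling). Mal, a raft-associated protein of myelin, fell by 5.06, and Cnp, a myelin phosphodiesterase, by 3.15 (limma adjusted p = 0.000774 and 0.00099). In the horizontal series, where 6.57% of all probes passed, 8 of the 16 did so, all rising toward the Avp-rich end, with Cnp at 3.24. The list mean, centred per gene, went from 2.04 in coronal fraction 1 to -1.10 in fraction 9, and its r over 22 arrays was 0.81 with Enpp6, 0.33 with Pdgfra and 0.18 with Cspg4.

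Of 19 other committed and newly formed oligodendrocyte genes tested, 8 passed in the coronal series, 7 of them falling, which is 42.1% of the list against 19.8% of all probes. Itpr2, an inositol trisphosphate receptor, fell by 1.55, Ugt8a, which makes galactocerebroside, by 4.12, and Bcas1 by 2.95. In the horizontal series 7 passed, all rising (36.8% against 6.57%), the smallest adjusted p-values being those of Sirt2 (2.10) and Ugt8a (3.71). Myrf, a regulator of the myelinating stage, was not well above background on any array and was not tested.

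Of 20 other precursor genes 12 passed in the coronal series (19.8% of all probes did), split into 7 falling and 5 rising by the linear term, with C1ql1 at -2.17, Ednrb at -1.29 and Zfp536 at -1.47. In all, 9 of them passed in the horizontal series (6.57% of all probes did), all rising, with C1ql1 at 1.80 and Ednrb at 1.71. Their mean was highest in coronal fraction 5 and lowest in fraction 10, as for Pdgfra. Its r was 0.97 with Gpr17, 0.95 with Pdgfra, 0.90 with Olig2, 0.72 with Enpp6, 0.31 with Nkx2-2 and 0.17 with Bmp4. Gpr17, classed here as committed-stage, was thus closest to this precursor mean, at 0.82 with the other committed and 0.60 with the myelinating mean. Enpp6 gave 0.83 and 0.81 with those means, and Bmp4 gave 0.54 and 0.63. None of the 3 stage lists had a gene past the threshold for the sagittal quadratic term, and for the sagittal linear term the precursor, committed and myelinating lists had 1 of 20, 2 of 19 and 0 of 16, against 10.0% of all probes.

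**Figure D5:**
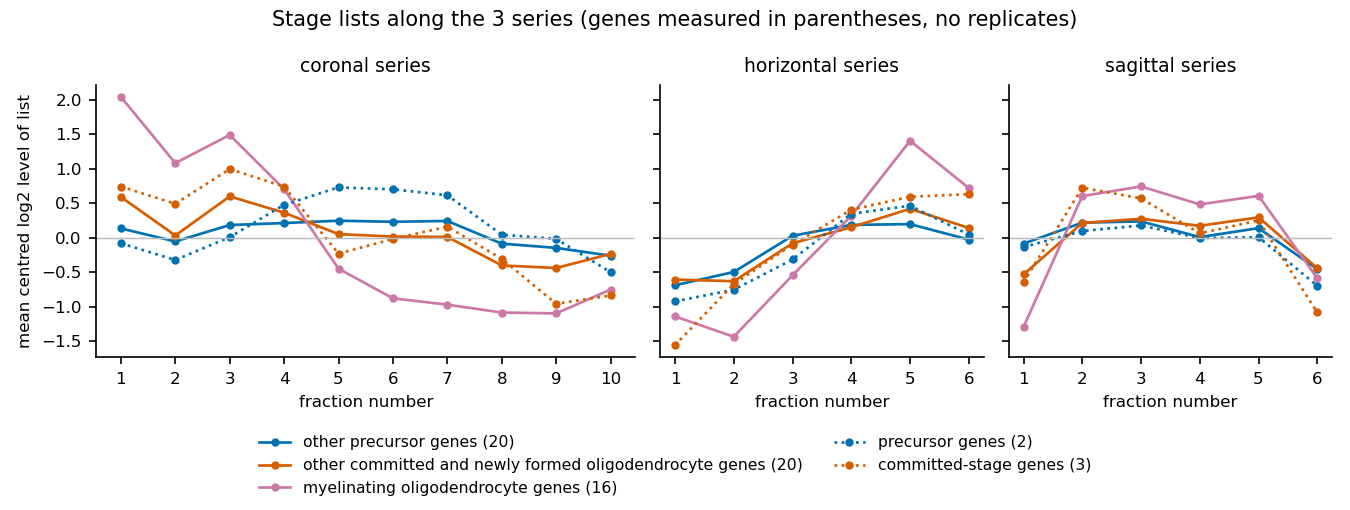
Mean expression density of the myelinating, other committed and other precursor gene lists in every fraction, each gene centred on its mean over 22 arrays (log2 units, vertical axis), 1 array per point. The myelinating list falls from 2.04 in coronal fraction 1 to -1.10 in fraction 9, and the other precursor list stays between -0.26 and 0.25 in that series.

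Pathways that act on precursors were read in the same way. PDGF-A, bound by Pdgfra, is the main precursor mitogen. Of 11 PDGF pathway genes 3 passed in the coronal series, Pdgfb (1.41), Pdgfrb (0.89) and Pdgfa itself (0.03, with a curved profile), and 1 in the horizontal series, Etv4 (1.58). These are 27.3% and 9.09% of the list, against 19.8% and 6.57% of all probes. Pearson's r with Pdgfra over 22 arrays was 0.92 for Spry1, a feedback inhibitor of receptor tyrosine kinases, 0.59 for Pdgfa and -0.52 for Spry2.

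Bone morphogenetic proteins hold precursors back from differentiation. Of 21 BMP pathway genes tested 3 passed in the coronal series, all with a positive linear term, namely Bmp2 (0.94), the receptor Acvr1 (0.68) and the antagonist Nog (1.15). In the horizontal series the receptor Bmpr1b rose by 1.60, as Bmp4 did, and Id2 fell by 0.91. The shares of the list were 14.3% and 9.52%, against 19.8% and 6.57% of all probes, so the coronal share was below the background and the horizontal one close to it. Bmp4 had its highest correlations in the pathway with Bmp7 (0.73) and Id1 (0.72), a BMP target, and its lowest with Acvr1 (-0.65). Of 8 Notch and other inhibitory genes 1 passed in the coronal series, Rtn4r (1.61), and 0 in the horizontal series, that is 12.5% and 0%, both below the shares of all probes.

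Several of the 9 genes are also made by other cells. Pdgfra is expressed by meningeal fibroblasts, Cspg4 by pericytes, Sox10 by Schwann and olfactory ensheathing cells, and Nkx2-2 in the lineage of serotonergic neurons. Of the 8 fibroblast genes 0 passed in the coronal series and 3 passed rising in the horizontal series (Col3a1, Lum and Aldh1a2). That is 0% and 37.5%, against 19.8% and 6.57% of all probes (3.95% rising in the horizontal series). Their mean level ran from 1.96 to 3.63 in the coronal, 1.92 to 4.54 in the horizontal and 2.12 to 3.58 in the sagittal series, and it was highest in horizontal fraction 6. Pdgfra correlated with single fibroblast genes between -0.54 and 0.15. Bmp4, which meningeal cells also make and which was highest in the same fraction, correlated with the list mean at 0.74, and the part of these cells in its level was not tested.

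All 8 pericyte genes were above background in every fraction, and their mean lay between 0.64 and 1.31 in the coronal and between 0.45 and 1.22 in the horizontal series. Of these 1 passed in the coronal and 2 in the horizontal series, all with positive linear terms. That is 12.5% and 25%, against 19.8% and 6.57% of all probes. Cspg4 correlated with the single pericyte genes between -0.48 and 0.88, the highest being Notch3, and the share of its signal from pericytes was not tested. Sox10 ran between 0.01 (Egr2) and 0.42 (Foxd3, above background on 7 arrays) with the detected ensheathing and Schwann cell genes. Of 7 such genes tested 4 (Frzb, Egr2, Foxd3 and Npy) passed in the coronal series with linear terms above 0, where 12.4% of all probes did. Erbb3, the neuregulin receptor on that list, was above background on 0 arrays. With the serotonergic genes Nkx2-2 gave 0.13 to 0.43. Of 8 astrocyte genes 4 passed falling in the coronal series (S100b by 2.94) and 3 rising in the horizontal one. Of all probes 7.43% and 3.95% did so. The astrocyte list mean correlated with the 9 genes between 0.41 (Cspg4) and 0.79 (Sox10). With Nkx2-2 it gave 0.76, where the myelinating list mean gave 0.69. Of 6 neuronal genes 4 passed in the coronal series with positive linear terms, as did 12.4% of all probes. The part of tissue composition in the 9 profiles was not tested.

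Of the 9 genes, 3 had another RefSeq probe. For Nkx2-2 both probes were measured on all arrays and gave r = 0.84. The other probe passed in the coronal series (-0.90 ± 0.22, limma adjusted p = 0.0266) and for the sagittal linear term (1.40 ± 0.28, adjusted p = 0.00639), where the probe used gave -0.72 ± 0.32 and 0.92 ± 0.40 and did not pass. For Enpp6 the probes gave r = 0.68. The other one fell by 1.93 ± 0.61 in the coronal series (limma adjusted p = 0.0488) and did not pass in the horizontal series, at a change of 2.92 ± 0.72 (adjusted p = 0.0532). Its sagittal linear term was 1.16 ± 0.76, against -1.67 ± 0.59 for the probe used, so the sagittal course of Enpp6 is not settled between its probes. The other Bmp4 probe was above background on 2 of 22 arrays and was not tested.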

How the data were processed

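Scanner files of 22 single-colour Agilent arrays were used as the authors deposited them (Feature Extraction 10.10.1.1, per the file headers). The values are gProcessedSignal, the background-subtracted spot intensity deposited by the authors, in linear units. A second deposited file holds log2 values, of which 47478 of 47544 probes matched with 100.0% of values within 0.02 of those used here, so it gave no separate result. Columns of unknown samples numbered 0. The genes and lists were chosen with earlier results of these data known.

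Control spots and spots with an outlier flag (131 to 187 per array) were left out, spots of a probe were averaged, log2 was taken and each array's 75th percentile was subtracted. Of 55681 probes 55600 had a value, and no spot (0) was saturated. Names came from RefSeq accessions (26553 of 28087 such probes matched). Precision is bounded by how few arrays there are.

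Position was the midpoint of the pooled slabs, scaled within a series. The last coronal and the outer sagittal fractions pool several slabs. The labels give slabs of 100 sections of 5 µm, 500 µm in all, and the methods give a thicker slab. limma 3.58.1 (R 4.3.3; no trend, not robust) fitted, for each series, a constant with linear and quadratic position terms over all 22 arrays (9 coefficients, 13 residual degrees of freedom), on the 39602 probes above background in at least 1 fraction of each series, with Benjamini-Hochberg adjustment and a threshold of 0.05. The fit was checked on simulated data. Classes, correlations and promoters were computed in Python 3.11.15 with pandas 2.3.3 and numpy 2.4.6, with no test.

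All 9 genes are named, with the 3 genes of highest Pearson's r for each, and from each list the passing genes with the 3 smallest coronal and 2 smallest horizontal adjusted p-values. Some genes that this rule would name are not reported here. Lists for microglia (0 of 5 genes past the coronal threshold, 2 of 5 past the horizontal), endothelial cells (1 and 0 of 5) and cycling cells (4 and 1 of 6) were also read, where 19.8% and 6.57% of all probes passed.

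Alternatives were other scalings (array median, quantile, none), normexp background correction (offset 50), other filters on dim probes, the a107 spike-in as a covariate, arrays with the calibration slope in range, the slide as a block, a linear term alone, each series alone, trended and robust limma, the next probe and leaving out each array. The files carry no mean signal, so normexp used the median one.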

Additional observations from a re-analysis of the deposited data

Results flagged for a closer look

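In 30 groups of values (the 9 genes and the class difference in each series) the lowest or the highest fraction was compared with its nearest neighbour, and chance sets apart about 1 in 20 such groups. A pair of genes had a fraction far from the rest, both in sagittal fraction 6, a side fraction that pools several slabs. Olig1 was at 3.09 there, with its nearest value in the series at 4.10. Pdgfra was at 1.29, with its nearest value at 1.98. No replicate of that fraction was hybridised.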

How the results depend on the processing

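No paired analysis was possible because the fraction numbers are positions along different axes in different mice. Of the 9 genes 4 passed along the coronal series, and 0 passed with the slide as a block, 1 with a linear term alone, 2 with the series fitted alone (4.03%, 7.13% and 1.61% of all probes) and 3 to 5 when any 1 array was left out. The horizontal count of 6 became 1 with the a107 covariate, 0 on the 15 arrays with an in-range slope (the in-slope arrays) alone, 0 with a linear term alone, 0 with the series alone (0.152%, 0.0328%, 0.518% and 0% of all probes), and 0 to 8 when 1 array was left out (0 without horizontal fraction 1, 3 without fraction 2, 3 without fraction 4 and 2 without fraction 5). The sagittal linear count of 0 became 2 with no scaling, 1 with normexp, 1 on probes detected on all 22 arrays, 1 with trended and robust limma, 1 with the next probe, and 0 to 3 when 1 array was left out. The sagittal quadratic count of 0 became 2, 2, 3 and 2 under the first 4 of these, 3 with the slide as a block, and 0 to 4 when 1 array was left out (4 without coronal fraction 1 or 2, which changes only the pooled scatter). The adjusted p-values of Gpr17 for that term lay between 0.0191 and 0.0482 in the 9 alternatives where it passed.

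The coronal committed-stage minus precursor change of -1.67 was -1.10 with normexp, -2.33 without Bmp4, -0.78 without Enpp6, -0.81 with the next probe, -2.67 with the in-slope arrays alone, and -2.10 to -1.44 when 1 array was left out. Here the next probe includes a Bmp4 probe above background on 2 of 22 arrays, and with Enpp6 alone read through its next probe, a choice added after seeing the data, the change was -1.11. The in-slope arrays are 8 coronal, 3 horizontal and 4 sagittal ones for 3 coefficients per series, so the horizontal curve passes through its 3 points and its linear term over the whole series is an extrapolation that shows no reversal. The horizontal change of 0.87 was 1.37 after quantile normalization, 0.45 with the next probe, -1.54 by that extrapolation (the difference itself was 0.06, 0.13 and 0.59 in fractions 4 to 6), and 0.15 (without horizontal fraction 1) to 1.03 when 1 array was left out. The sagittal change of -0.14 was 0.32 with normexp, -0.73 without Bmp4, 0.36 without Enpp6, 0.067 without Cspg4, 0.96 with the next probe, 0.80 with that of Enpp6 alone, -1.17 with the in-slope arrays alone, and -1.15 (without sagittal fraction 1) to 0.090 (without fraction 2) when 1 array was left out. Where the fraction left out was an end of its series, the fitted change also reaches beyond the arrays left. The cause of these shifts was not tested.

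The extrapolation from the 3 horizontal in-slope arrays gave Bmp4 a fitted horizontal range of 4.92 with a linear term below 0. Bmp4 stood at 2.03, 2.24 and 3.36 on those 3 arrays. In the sagittal series single genes turned sign as follows. For the sagittal linear term Bmp4 was at -0.38 with no scaling, -0.13 with the in-slope arrays alone and -0.046 to 0.67 when 1 array was left out (the lowest without sagittal fraction 1). With 1 array left out that term ran from -0.98 to 0.21 for Olig1, -0.81 to 0.064 for Sox10 and -0.39 to 0.042 for Cspg4, each highest without sagittal fraction 6. For the sagittal quadratic term Bmp4 ran from -1.73 to 0.15 when 1 array was left out (0.15 without sagittal fraction 1), and Nkx2-2 was at 0.70 with the a107 covariate, 0.15 with the in-slope arrays alone, and -1.11 to 0.52 when 1 array was left out (0.52 without sagittal fraction 1, 0.46 without sagittal fraction 6). Among coronal calls, Sox10 (adjusted p = 0.0484) and Nkx2-2 (adjusted p = 0.0307) passed with the a107 covariate, where Pdgfra (0.0565) and Cspg4 (0.0982) did not, all by limma. In the horizontal series Cspg4 passed in 10 alternatives (adjusted p 0.0298 to 0.0497). The adjusted p of Enpp6 in the coronal series ran from 0.000587 to 0.056 over all alternatives. The signal of Enpp6 was near background in its lowest fractions, which limits the size of its changes there.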
